A study of Mus musculus with 36 samples.

Results

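The homing and adhesion receptors described here are 8 genes, Cxcr4, Ccr7, Ccr9, S1pr1, Itga4, Itga6, Itgb1 and Cd44, of 60388 gene symbols that have a row in at least 1 of 3 RNA-seq tables. They were chosen by name, as receptors that keep B cell progenitors in the bone marrow, guide their movement or let them leave, and no threshold on a measured value entered the rule. Each of the 8 genes had a row for all 24 RNA-seq libraries. A filter on low values (10 normalized counts in 2 or more of the 8 libraries of a table) kept 8 of 8 in the first and second tables and 7 of 8, all but Ccr9, in the third. Pax5 ChIP–seq peaks were taken over each gene and the 10 kb upstream of its start.

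The study asked how the deacetylase SIRT7 and the acetylation of Pax5, the transcription factor that commits progenitors to the B lineage, bear on B cell development in mice. Each of the 3 RNA-seq tables held 4 groups of 2 libraries. For experiments involving mice the methods count each mouse as a replicate, and they do not say whether replicates of cultured cells came from different mice. The first table held pro-B cells (CD43+) and pre-B cells (CD43-) sorted by surface markers from the bone marrow of wild-type and Sirt7-/- 129Sv mice of both sexes, 8 to 16 weeks of age, the knockout lacking exons 4 to 10 of Sirt7. The second held cultured Pax5-/- pro-B cells on a C57BL/6 background, in which all groups were Pax5-/- and carried a retrovirus with no insert (EV), wild-type Pax5 (Pax5WT) or Pax5 with a lysine changed to glutamine (K198Q) or arginine (K198R). The labels call these cells bone marrow pro-B cells and the methods describe cells derived from fetal liver. The third held cultured bone marrow pro-B cells, wild-type ones carrying EV and Sirt7-/- ones carrying EV, Pax5WT or K198R, so that all Sirt7-/- groups kept their own Pax5. Its mice were, per the methods, also 129Sv, 8 to 16 weeks of age, with exons 4 to 10 deleted in the knockout. All cultured cells grew on mitomycin C-treated OP9 stromal feeder cells with IL-7, SCF and FLT3L at 10 ng/mL each. The ChIP–seq peak lists came from Pax5-/- cells with Pax5WT, K198Q or K198R after 7 days, with 2 replicates of each form and 1 list per replicate, and no list from EV cells was analysed here. The peak names within the K198R replicate 2 list begin with R3, and it was taken as replicate 2 from its label.

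B cell progenitors develop in contact with stromal cells of the marrow. Cxcr4 is the receptor for CXCL12, the chemokine that retains them there, and the integrin α4β1 (Itga4 with Itgb1) binds VCAM-1 and fibronectin on the stroma. The integrin α6β1 (Itga6 with Itgb1) binds laminin and CD44 binds hyaluronan. Ccr7 guides lymphocytes towards CCL19 and CCL21 in lymph nodes and spleen, Ccr9 guides them towards CCL25 in thymus and gut, and S1pr1 senses sphingosine-1-phosphate (S1P) in blood and lymph and drives egress. Pax5 is a DNA-binding factor that both activates and represses genes in these cells.

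The targeted genes and the marker genes followed the sample titles. Sirt7 had 2692 and 2533 normalized counts in pro-B and 5613 and 5219 in pre-B cells of wild-type mice, against 363 and 366 in pro-B and 1066 and 821 in pre-B cells of the knockout. In culture Sirt7 was at 1324 and 905 in wild-type cells and between 325 and 407 in the 6 Sirt7-/- libraries. Each knockout library therefore lay below each wild-type library of its table, with part of the transcript still counted. Pax5 was at 2201 and 2103 in Pax5-/- cells with EV, 6458 and 6152 with Pax5WT, 8918 and 8963 with K198Q and 21162 and 16610 with K198R. Transcript was thus still counted for Pax5 with EV, where no Pax5 was inserted. The 3 forms were not at equal levels, and the part of this in the results below was not tested. The titles and a cell type label disagree on the stage of 4 of the 8 sorted libraries, and the titles were followed. The summed level of 6 pro-B markers (Igll1, Dntt and others) was between 96407 and 123767 in the 4 libraries titled pro-B and between 22666 and 34995 in the 4 titled pre-B. That of 6 pre-B markers was between 83133 and 100275 against between 241293 and 314145.

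Per length of transcript, Cxcr4 was the most abundant of the receptors in each of the 12 groups. Its mean level was 14763 normalized counts per kb of transcript in sorted wild-type pro-B cells and 29646 in pre-B cells. Itga4 came next in sorted cells, at 3223 per kb in wild-type pro-B cells and 2545 in pre-B cells. In culture Itgb1 took that place, at 1118 per kb in wild-type cells and 1349 in Pax5-/- cells with EV. Ccr9 was the lowest in sorted cells (15.5 per kb in wild-type pro-B cells) and in the third table, where it was listed at 0 in wild-type and Sirt7-/- cells with EV. In Pax5-/- cells with EV, Ccr9 was instead the third most abundant at 880 per kb, and S1pr1 was the lowest at 31.2 per kb. The tables were normalized separately by the authors, so levels were compared by test only within a table.

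**Figure D1:**
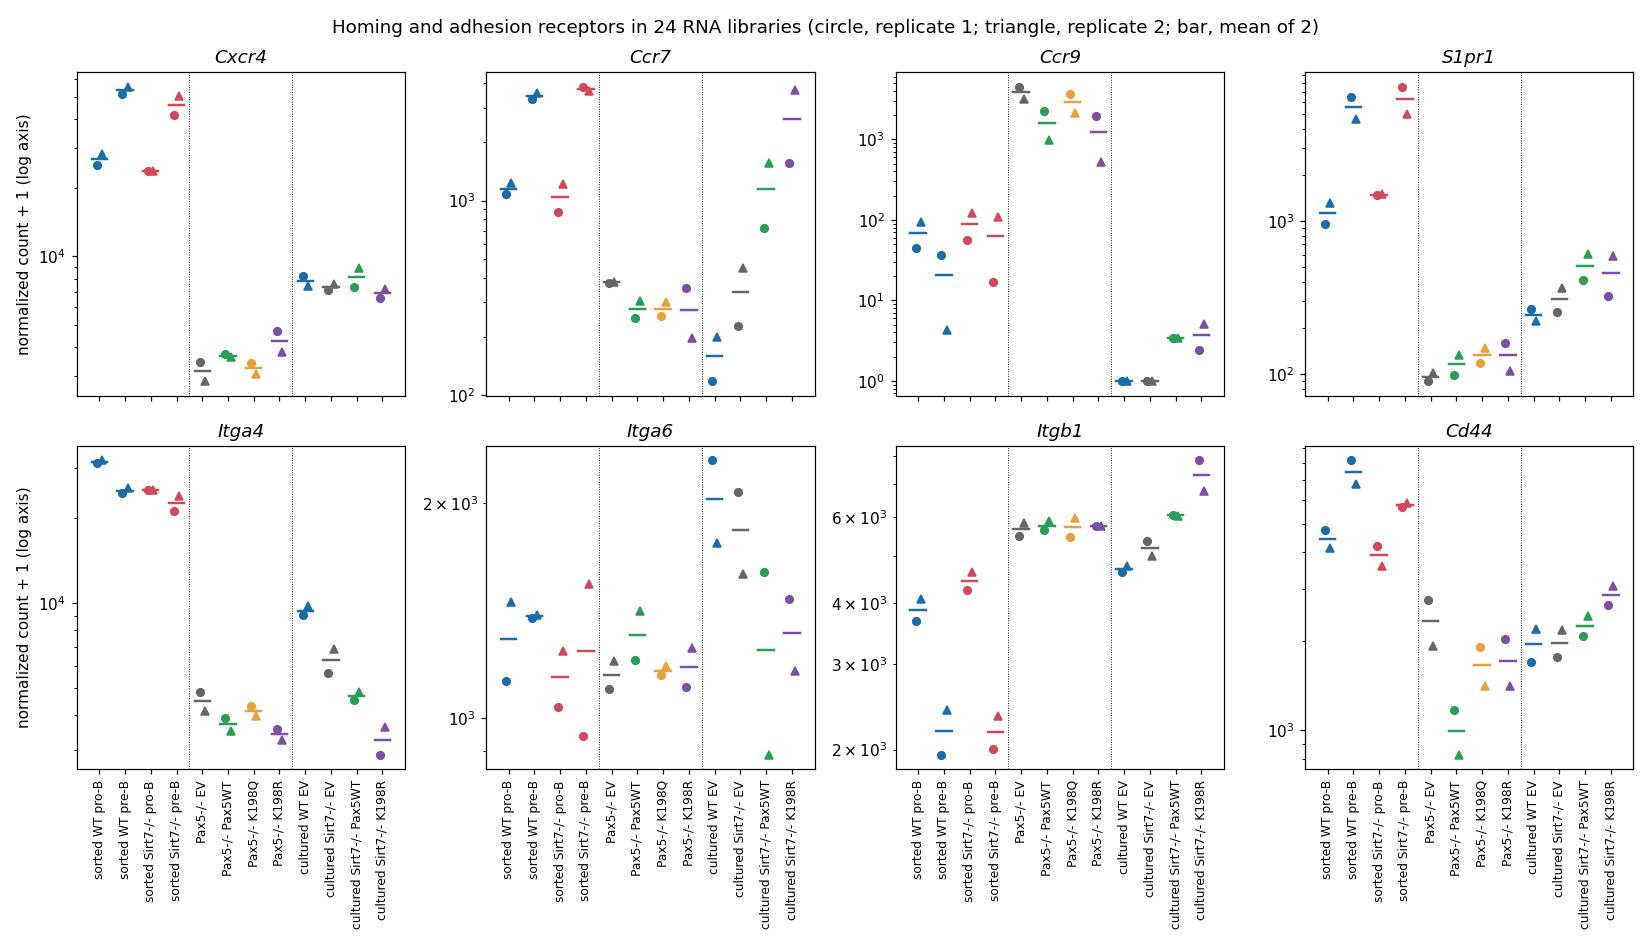
Normalized count plus 1 (log axis) of the 8 receptors in each of 24 RNA-seq libraries, with circles for replicate 1, triangles for replicate 2 and bars for the mean of 2, and dotted lines between the 3 tables. Cxcr4, Ccr7, S1pr1 and Cd44 stood higher in sorted pre-B than pro-B cells, Ccr9 was highest in the Pax5-/- table, and Ccr7 reached 1558 and 3705 in cultured Sirt7-/- cells with K198R.

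From pro-B to pre-B cells S1pr1, Ccr7, Cxcr4 and Cd44 rose and Itgb1 fell in both genotypes, Itga4 fell in wild-type mice, and Itga6 and Ccr9 passed the test in neither genotype. In wild-type mice 6 of 8 receptors differed at an adjusted p under 0.05 (limma), beside 40.2% of all genes tested. S1pr1, Ccr7, Cxcr4 and Cd44 rose (4 of 8, beside 18.1% of genes that rose), and Itgb1 and Itga4 fell (2 of 8, beside 22% that fell). In Sirt7-/- mice 5 of 8 differed, beside 35.7% of genes, as S1pr1, Ccr7, Cxcr4 and Cd44 rose (4 of 8, beside 16.5%) and Itgb1 fell (1 of 8, beside 19.2%). The libraries of the 2 stages did not overlap for 7 of 8 receptors in wild-type mice (beside 72.6% of genes) and for 6 of 8 in Sirt7-/- mice (beside 69.8%). S1pr1 and Ccr7 alone also passed an absolute log2 fold change of 1.5 in each genotype (2 of 8, beside 13.9% and 10.2% of genes). The median log2 change of the 8 receptors was 0.43 in wild-type and 0.33 in Sirt7-/- mice, beside a median over all genes of -0.035 and -0.038. With any 1 library left out, 5 to 6 receptors passed in wild-type and 4 to 5 in Sirt7-/- mice. By the sample descriptions, the pro-B and pre-B libraries of a replicate number within a genotype carry the same animal code. The stage tests here did not use this pairing, and a block by mouse changed no call of a receptor. Since these are bulk samples, fewer cells of a type and less RNA per cell cannot be told apart.

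No receptor passed the test between Sirt7-/- and wild-type cells at either stage, by limma, by edgeR or by DESeq2. Over all genes edgeR called 10 of 17649 in pro-B and 5 of 17649 in pre-B cells, and DESeq2 called 126 of 16622 and 720 of 15596. In pro-B cells 0 of 8 passed (beside 0.0623% of all genes) and 1 of 8 had an unadjusted p under 0.05 (beside 5.94% of genes). In pre-B cells 0 of 8 passed (beside 0.085% of genes) and again 1 of 8 had an unadjusted p under 0.05 (beside 13.6%). Sirt7-/- and wild-type libraries stood apart with no overlap for 4 of 8 receptors in pro-B cells (beside 39.3% of genes) and for 4 of 8 in pre-B cells (beside 41.4%). The interaction of stage and genotype passed for 0 of 8 receptors (beside 0.00567% of genes), with 0 of 8 at an unadjusted p under 0.05 (beside 5.43%) and a smallest adjusted p of 0.955. The smallest p that an exact permutation test can give for 2 libraries against 2 is 0.333, so the p-values given are those of models fitted across all genes.

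**Figure D2:**
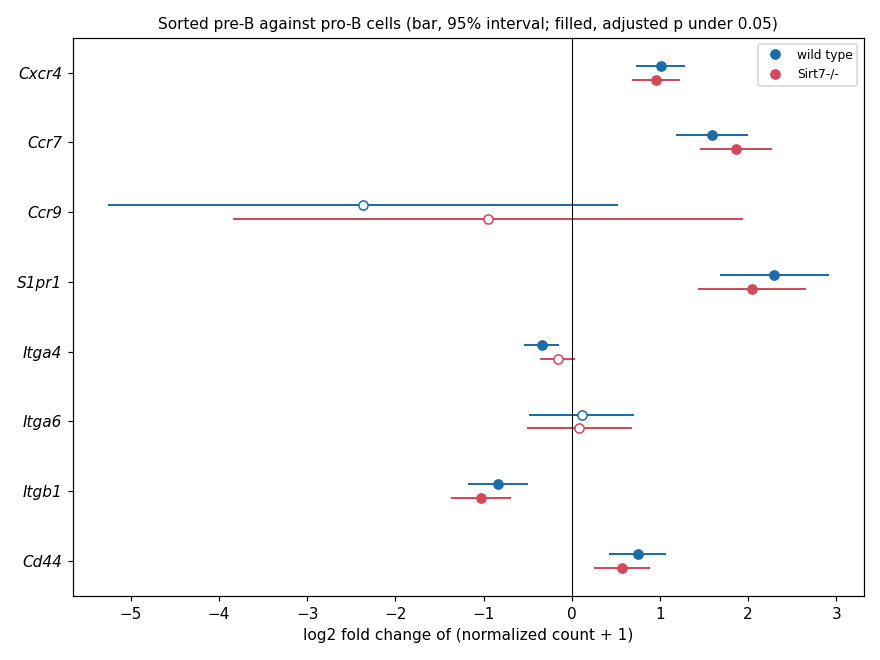
Log2 fold change of (normalized count + 1) in sorted pre-B against pro-B cells for the 8 receptors, in wild-type (blue) and Sirt7-/- mice (red), with bars for the 95% interval and filled points for an adjusted p under 0.05. S1pr1, Ccr7, Cxcr4 and Cd44 lie to the right and Itgb1 to the left in both genotypes, and the intervals of the 2 genotypes overlap for each receptor.

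In Pax5-/- cells no receptor passed limma's test in any of 6 comparisons fitted without regard to replicate number. The comparisons share control libraries. They were Pax5WT with EV (0 of 8, beside 3.25% of all genes), K198Q with EV (0 of 8, beside 0.922%), K198R with EV (0 of 8, beside 9.92%), K198Q with Pax5WT (0 of 8, beside 0.0225%), K198R with Pax5WT (0 of 8, beside 2.87%) and K198R with K198Q (0 of 8, beside 5.01%). At an unadjusted p under 0.05 there were 2, 0, 3, 1, 1 and 3 of 8 receptors in the same order, beside 14.4%, 7.86%, 22.9%, 3.46%, 12.7% and 16.9% of genes. The libraries compared did not overlap for 6, 3, 5, 4, 2 and 3 of 8, beside 42.6%, 34.2%, 46.8%, 28.7%, 38.4% and 43.1%. Libraries of the same replicate number deviated together in both cultured tables, and with the replicate number as a block 3, 1, 4, 1, 1 and 3 of 8 receptors passed, beside 10.1%, 2.72%, 21.2%, 0.217%, 7.52% and 13.1% of genes. Those receptors were Cd44, Ccr9, Itga4 and Cxcr4, and each blocked value is given with its gene below.

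In the third table, K198R against EV in Sirt7-/- cells was the comparison with calls among the receptors in the fit with no block. Of 7 receptors tested (Ccr9 had too few counts), Ccr7 and Itgb1 rose and Itga4 fell, 3 of 7 beside 4.83% of all genes (2.09% rose and 2.74% fell), and with the block 4 of 7 passed beside 11.6%. The 3 calls rested on few libraries. Without EV replicate 1 or EV replicate 2 none of the 3 passed, without K198R replicate 1 Ccr7 did, and without K198R replicate 2 Itga4 did. The other comparisons were Sirt7-/- EV with wild-type EV (0 of 7, beside 0.557% of genes), Pax5WT with EV in Sirt7-/- cells (0 of 7, beside 0.0366%) and K198R with Pax5WT (0 of 7, beside 0.425%). At an unadjusted p under 0.05 they had 1, 2 and 2 of 7 receptors (beside 9.68%, 9.91% and 8.78% of genes), and with the block 2, 1 and 2 of 7 passed (beside 2.11%, 1.96% and 2.3%). The libraries did not overlap for 5 of 7 receptors between K198R and EV (beside 49.6%) and for 3, 4 and 4 of 7 in the other comparisons (beside 34.6%, 38.7% and 37.7%).

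**Figure D3:**
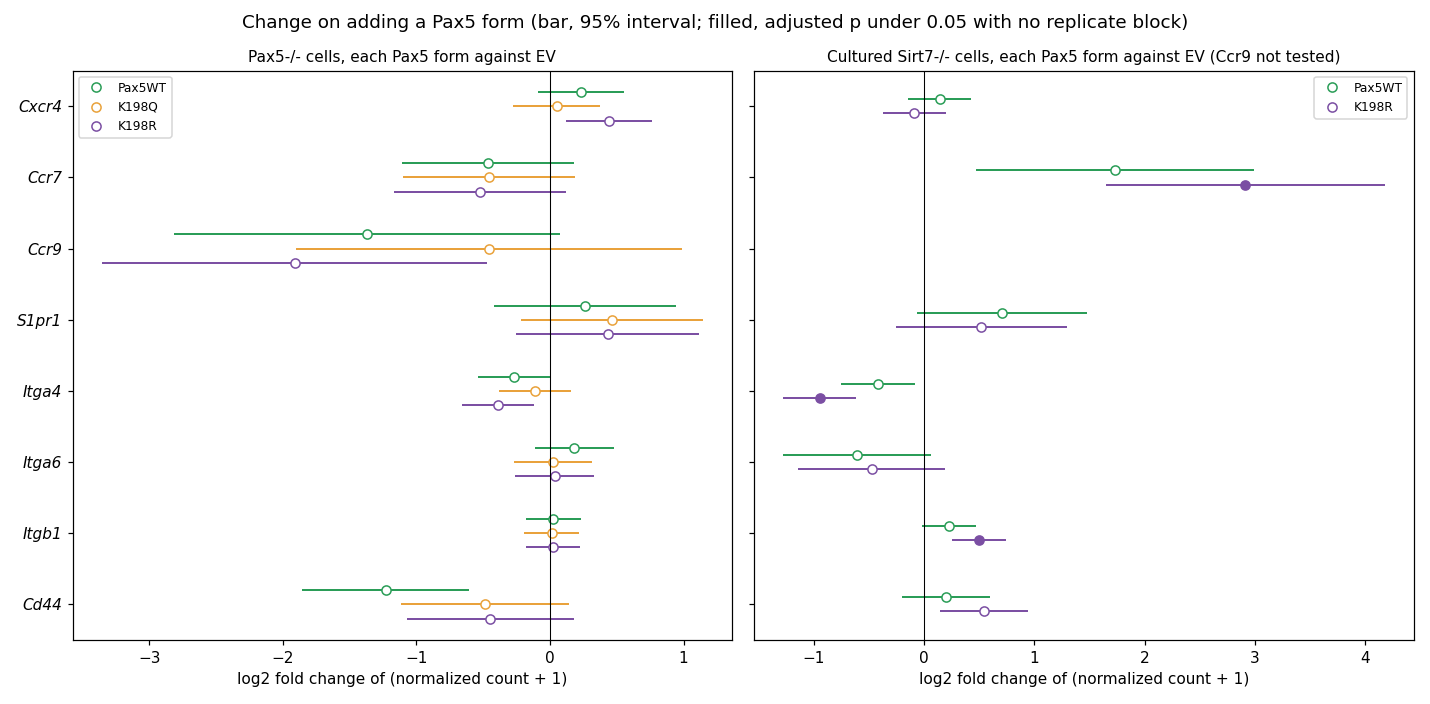
Log2 fold change of (normalized count + 1) against EV for each Pax5 form in Pax5-/- cells (left) and in cultured Sirt7-/- cells (right, Ccr9 not tested), from the fit with no replicate block, with bars for the 95% interval and filled points for an adjusted p under 0.05. The filled points are Ccr7, Itga4 and Itgb1 with K198R in Sirt7-/- cells, and Ccr7 lies left of 0 in Pax5-/- cells and right of 0 in Sirt7-/- cells.

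A gene was counted where peaks of both replicates overlapped each other and lay over the gene or its 10 kb upstream. With Pax5WT this held for 3 of 8 receptors (Cxcr4, Ccr7 and Itga4), beside 33.4% of 18015 genes examined. Itga6 and Cd44 also had Pax5WT peaks in both replicates, but at places that did not overlap. With K198Q there were 2 of 8 (Cxcr4 and Itga4), beside 12.6% of genes, and with K198R 5 of 8 (Cxcr4, Itga4, Itga6, Itgb1 and Cd44), beside 38.7%. The lists held 10646 and 11830 peaks with Pax5WT, 3750 and 3957 with K198Q and 12158 and 13997 with K198R. S1pr1 had no peak in its window in any of the 6 lists. Of the sites found, 1 upstream of Cxcr4 and 1 upstream of Itga4 were in all 6 lists.

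The windows of 200 bases around the summits of the most widely shared site outside exons of 5 receptor genes (in at least 3 of 6 lists) are shown, since they are where Pax5 was found at these receptor genes. They are read from mm10 on the strand of the gene, 5′ to 3′, in lower case, with GCGTGAC, a core of the Pax5 recognition sequence, in capitals where either strand held it.
Cxcr4 upstream, chr1:128601481-128601680, minus strand: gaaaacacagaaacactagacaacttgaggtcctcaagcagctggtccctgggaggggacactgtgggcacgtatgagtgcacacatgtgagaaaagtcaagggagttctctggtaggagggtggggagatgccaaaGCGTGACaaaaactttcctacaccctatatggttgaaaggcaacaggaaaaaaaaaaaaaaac
Itga4 upstream, chr2:79254712-79254911, plus strand: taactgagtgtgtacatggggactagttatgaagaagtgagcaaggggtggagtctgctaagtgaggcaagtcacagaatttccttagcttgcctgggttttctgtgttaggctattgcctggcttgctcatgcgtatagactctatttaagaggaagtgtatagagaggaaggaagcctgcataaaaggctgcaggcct
Ccr7 intron, chr11:99150094-99150293, minus strand: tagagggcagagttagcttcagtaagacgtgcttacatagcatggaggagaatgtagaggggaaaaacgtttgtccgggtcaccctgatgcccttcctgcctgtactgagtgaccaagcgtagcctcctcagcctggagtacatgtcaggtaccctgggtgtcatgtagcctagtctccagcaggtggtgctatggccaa
Itga6 upstream, chr2:71744871-71745070, plus strand: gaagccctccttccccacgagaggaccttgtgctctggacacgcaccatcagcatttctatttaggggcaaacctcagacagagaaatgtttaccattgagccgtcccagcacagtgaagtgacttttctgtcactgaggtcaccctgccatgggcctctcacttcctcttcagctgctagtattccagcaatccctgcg
Cd44 intron, chr2:102867834-102868033, minus strand: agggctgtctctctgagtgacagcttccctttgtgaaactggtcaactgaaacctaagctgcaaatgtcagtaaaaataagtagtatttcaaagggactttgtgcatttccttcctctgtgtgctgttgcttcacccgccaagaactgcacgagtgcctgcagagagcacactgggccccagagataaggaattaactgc
The core was in the Cxcr4 window only, and in none of the windows around the other sites found at the 8 genes. Among all summit windows of the same length it was in 5.50% and 5.36% with Pax5WT, 7.69% and 7.31% with K198Q and 5.002% and 4.68% with K198R, and in 2.19% of the 200 bases before the start of each gene examined. The RefSeq promoter table held 5 of the 8 receptors (Cxcr4, Itga4, Cd44, Itgb1 and Ccr9), none with the core, which 2.09% of all 32851 promoters in it carried. A match is a description of the letters, not a measured binding site.

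Cxcr4 doubled from pro-B to pre-B cells. Wild-type Cxcr4 libraries had 25303 and 28258 normalized counts in pro-B and 51823 and 55734 in pre-B cells, and in Sirt7-/- mice 23646 and 23856 in pro-B and 41746 and 50710 in pre-B cells. Each pre-B library lay above each pro-B library. The rise was 2.01-fold in wild-type mice (log2 1.01, SE 0.11, adjusted p = 0.000706) and 1.94-fold in Sirt7-/- mice (log2 0.95, SE 0.11, adjusted p = 0.00131). Within each stage both Sirt7-/- libraries lay below both wild-type libraries (adjusted p = 0.930 in pro-B and 0.434 in pre-B cells).

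In Pax5-/- cells Cxcr4 was at 3433 and 2843 normalized counts with EV, 3721 and 3611 with Pax5WT, 3418 and 3055 with K198Q and 4721 and 3809 with K198R. The 2 K198R libraries were the highest of the 8. The log2 difference between K198R and EV was 0.44 (SE 0.14, adjusted p = 0.0923), and with the replicate block the adjusted p was 0.00605. Against K198Q it was 0.39 (SE 0.14, adjusted p = 0.183, and 0.0156 with the block). Among the cultured bone marrow cells Cxcr4 was at 8224 and 7399 in wild-type cells with EV, 7100 and 7544 in Sirt7-/- cells with EV, 7335 and 8889 with Pax5WT and 6595 and 7176 with K198R. There both K198R libraries lay below both Pax5WT and both wild-type EV libraries, and the other groups overlapped.

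The upstream Cxcr4 site lay at chr1:128601368-128601758, 9.29 kb before the start of the gene, close to the edge of the 10 kb window. Its fold enrichment over input was 7.48 and 10.1 with Pax5WT, 6.87 and 6.35 with K198Q and 9.55 and 11.4 with K198R. It outranked 73.1% and 87.8% of the peaks of the Pax5WT lists, 72.2% and 62.5% of the K198Q lists and 87.0% and 89.7% of the K198R lists. A further site within the Cxcr4 intron was in 4 lists (1 Pax5WT, 1 K198Q and both K198R), at 3.74-fold to 7.96-fold enrichment. Beyond the window, a peak near -11.0 kb was in both Pax5WT and both K198R lists and in neither K198Q list at 5.07-fold to 6.20-fold enrichment, and a peak near -15.9 kb was in all 6 lists at 6.96-fold to 10.6-fold.

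Ccr7 rose more steeply over the same step. Its level in wild-type mice was 1074 and 1223 normalized counts in pro-B and 3336 and 3563 in pre-B cells, and in Sirt7-/- mice 876 and 1220 in pro-B and 3855 and 3670 in pre-B cells. The lowest pre-B library, at 3336, lay far above the highest pro-B library, at 1223. The rise was 3.01-fold in wild-type (log2 1.59, SE 0.17, adjusted p = 0.000628) and 3.64-fold in Sirt7-/- mice (log2 1.86, SE 0.17, adjusted p = 0.000562).

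Ccr7 was low in Pax5-/- cells, at 377 and 380 normalized counts with EV, 249 and 303 with Pax5WT, 253 and 300.5 with K198Q and 352 and 196 with K198R. All 6 libraries with a form of Pax5 lay below both EV libraries, and the log2 differences from EV did not pass the test (adjusted p = 0.554, 0.896 and 0.318). The 2 K198R libraries differed most, and without replicate 1 the log2 difference of K198R from EV was -0.94 (adjusted p = 0.0349).

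In cultured Sirt7-/- cells Ccr7 went the other way. It was at 117 and 197.8 normalized counts in wild-type cells with EV, 225 and 449.5 in Sirt7-/- cells with EV, 718 and 1561 with Pax5WT and 1558 and 3705 with K198R. The 4 groups stood in that order, with replicate 2 above replicate 1 in each, and the higher Pax5WT library lay level with the lower K198R library. K198R was 7.53-fold above EV (log2 2.91, SE 0.54, adjusted p = 0.0262). Without EV replicate 1, EV replicate 2 or K198R replicate 2 the adjusted p was 0.148, 0.0626 or 0.165, and the log2 value stayed between 2.29 and 3.54, and with genes of low values kept the adjusted p was 0.0552. Pax5WT was 3.32-fold above EV (log2 1.73, adjusted p = 0.336, and 0.00383 with the block), Sirt7-/- EV was 2.08-fold above wild-type EV (log2 1.06, adjusted p = 0.645, and 0.0154 with the block), and K198R was 2.27-fold above Pax5WT (log2 1.18, adjusted p = 0.611, and 0.0101 with the block). With 1 library left out these log2 values ran from 1.17 to 2.29, from 0.56 to 1.55 and from 0.56 to 1.81.

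Markers of later B cells and of stroma also differed between those libraries. The summed level of 7 of 8 immature and mature B cell markers with a row was 2274 and 2425 in wild-type cells with EV, 6174 and 8175 in Sirt7-/- cells with EV, 10778 and 20224 with Pax5WT and 18432 and 39380 with K198R. None of the 7 was at 0, Ighd (the IgD heavy chain) was the most abundant in 7 of the 8 libraries, and 1 rose and 1 fell of 7 tested for K198R against EV. Ighd carried much of the sum, with 25103 counts in K198R replicate 2, and gene by gene 4 of 7 were higher and 3 lower with K198R than with EV, and 3 higher and 4 lower with Pax5WT than with EV. The sum of 11 of 12 stromal markers, led by Fn1, was 12608 and 9612, 9096 and 12866, 14490 and 31507, and 10979 and 23805 in the same order, and 0 of 10 tested passed. It overlapped between wild-type and Sirt7-/- cells with EV, and 9 of 10 stromal genes were lower with K198R than with Pax5WT (0 of 10 called). The part of either in the Ccr7 values was not tested.

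A Pax5 site in a Ccr7 intron (chr11:99150005-99150427, 4.88 kb after the start) was in both Pax5WT lists, 1 K198Q list and 1 K198R list. Its enrichment was 5.38 and 6.34 with Pax5WT, 6.03 with K198Q and 4.56 with K198R. Beyond the window, a peak near -13.1 kb was in all 6 lists and stronger, at 18.8 and 14.03 with Pax5WT, 8.58 and 8.03 with K198Q and 9.26 and 13.3 with K198R.

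Ccr9 was a receptor of the Pax5-/- cells. It was at 4517 and 3211 normalized counts with EV, 2238 and 972 with Pax5WT, 3618 and 2138 with K198Q and 1950 and 523 with K198R. Replicate 2 was the lower in all 4 groups, and the groups in order of their means were EV, K198Q, Pax5WT and K198R, with neighbours in that order overlapping each time. Both Pax5WT and both K198R libraries lay below both EV libraries.

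The log2 difference of K198R from EV was -1.91 (SE 0.62, adjusted p = 0.106), and with the block the adjusted p was 0.00230. Without K198R replicate 1 it was -2.86 (adjusted p = 0.0122), and without K198R replicate 2 it was -0.97 (adjusted p = 0.363). For Pax5WT against EV it was -1.37 (SE 0.62, adjusted p = 0.381, and 0.0194 with the block). For K198R against K198Q it was -1.46 (SE 0.62, adjusted p = 0.287, and 0.0124 with the block). With 1 library left out these values ran from -1.97 to -0.77 and from -2.41 to -0.51. K198Q against EV had an interval of -1.89 to 0.98. Markers of NK cells (led by Klrd1 or Nkg7, 2 of 7 listed at 0) moved alike. Their sums were 1251 and 1128 with EV, 807 and 675 with K198Q, 495 and 413 with Pax5WT and 335 and 171 with K198R. Against EV 2 of 5 tested fell with K198R and 0 rose. Plasma cell markers, led by Jchain, summed to 76370 and 74260, 57931 and 50161, 50349 and 43796, and 39075 and 31225 in the same order. Of these, 1 of 3 tested fell with K198R against EV and 0 rose. T cell sums, led by Lck, overlapped between EV and K198R, while 3 of 6 tested fell and 0 rose. The part of these markers was not tested.

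Elsewhere Ccr9 was near the floor. Sorted wild-type cells had 43.9 and 92.3 normalized counts of it at the pro-B and 35.5 and 3.28 at the pre-B stage, and sorted Sirt7-/- cells 55.0 and 121 and then 15.99 and 107.5. Replicates of a group differed by up to 3.09 on the log2 scale, and the 95% interval of the wild-type stage difference ran from -5.25 to 0.51. Among the cultured bone marrow cells it was listed at 0 in the 4 libraries with EV and between 1.44 and 4.04 in the 4 libraries with a Pax5 form. The single Pax5 peak over the Ccr9 record, in Pax5WT replicate 1 at 5.34-fold enrichment, lay 4.07 kb upstream of the RefSeq start, since the GENCODE record begins 88.8 kb before it.

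S1pr1 showed the steepest rise of the receptors from pro-B to pre-B cells. Wild-type S1pr1 levels were 952 and 1304 normalized counts in pro-B and 6480 and 4642 in pre-B cells, and in Sirt7-/- mice 1481 and 1486 in pro-B and 7543 and 4970 in pre-B cells. The lowest pre-B library, at 4642, lay far above the highest pro-B library, at 1486. The rise was 4.92-fold in wild-type (log2 2.30, SE 0.25, adjusted p = 0.000737) and 4.12-fold in Sirt7-/- mice (log2 2.04, SE 0.25, adjusted p = 0.00167). Both Sirt7-/- pro-B libraries lay above both wild-type pro-B libraries, and the adjusted p was 0.926.

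In culture S1pr1 was low. It was between 88.8 and 159 normalized counts in the 8 Pax5-/- libraries, where both K198Q and both K198R libraries lay above both EV libraries and the largest log2 difference from EV was 0.46 with K198Q (95% interval -0.21 to 1.14). The cultured bone marrow cells had more of it. It was at 263 and 222 in wild-type cells with EV, 254 and 362 in Sirt7-/- cells with EV, 408 and 601 with Pax5WT and 322 and 588 with K198R. Both Pax5WT libraries were above both EV libraries (adjusted p = 0.539), and K198R overlapped both.

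Itga4 fell slightly over the pro-B to pre-B step in wild-type mice. In wild-type mice there were 31405 and 31974 normalized counts in pro-B and 24602 and 25442 in pre-B cells, and in Sirt7-/- mice 25174 and 25126 in pro-B and 21186 and 23887 in pre-B cells. The 2 wild-type pro-B libraries stood above the other 6. The fall was 1.27-fold in wild-type mice (log2 -0.34, SE 0.079, adjusted p = 0.0140), and without pre-B replicate 1, pro-B replicate 1 or pro-B replicate 2 the adjusted p was 0.0639, 0.0578 or 0.0726. In Sirt7-/- mice the log2 difference was -0.16 (adjusted p = 0.159), and -0.26 with libraries scaled to equal totals (adjusted p = 0.0362). Sirt7-/- pro-B cells were 1.26-fold below wild-type pro-B cells (log2 -0.33, unadjusted p = 0.00416, adjusted p = 0.552 by limma).

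Itga4 was also lower with Pax5WT and with K198R than with EV in both cultured tables. Pax5-/- cells had 4844 and 4143 normalized counts with EV, 3923 and 3519 with Pax5WT, 4296 and 3989 with K198Q and 3588 and 3256 with K198R. The Pax5WT and K198R libraries lay below both EV libraries and K198Q overlapped EV. The log2 difference from EV was -0.39 with K198R (SE 0.11, adjusted p = 0.0735, and 0.00346 with the block) and -0.27 with Pax5WT (SE 0.11, adjusted p = 0.324, and 0.0306 with the block). K198R was below K198Q by a log2 difference of -0.28 (adjusted p = 0.262, and 0.0242 with the block).

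The order was clearest for Itga4 in the cultured bone marrow cells. It was at 9036 and 9755 normalized counts in wild-type cells with EV, 5663 and 6875 in Sirt7-/- cells with EV, 4520 and 4829 with Pax5WT and 2895 and 3624 with K198R. The 4 groups did not overlap and stood in that order. K198R was 1.93-fold below EV (log2 -0.95, SE 0.14, adjusted p = 0.0125), and without EV replicate 1, EV replicate 2 or K198R replicate 1 the adjusted p was 0.0521, 0.0724 or 0.0664. Sirt7-/- EV was 1.505-fold below wild-type EV (log2 -0.59, SE 0.14, adjusted p = 0.154, and 0.0215 with the block). Pax5WT was 1.34-fold below EV (log2 -0.42, adjusted p = 0.374), and K198R was 1.44-fold below Pax5WT (log2 -0.53, adjusted p = 0.213, and 0.0285 with the block). The summed level of 7 of 12 T cell markers with a row, led by Thy1 or Lck and with 0 to 3 of the 7 at 0, was 3212 and 2191 in wild-type cells with EV, 2857 and 1650 in Sirt7-/- cells with EV, 1071 and 417 with Pax5WT and 796 and 396 with K198R. Against EV 2 of 3 tested (Lck and Tcf7) fell with K198R. Cd3d, Cd4 and Cd8a were at no more than 1.02, 6.90 and 2.04 normalized counts in the 8 libraries, and Cd3e, Cd3g, Trac, Trbc1 and Trbc2 were not matched to a row. The part of these markers in the Itga4 values was not tested.

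The Itga4 site in all 6 lists lay at chr2:79254601-79255046, 0.614 kb before the start of the gene. Its enrichment was 5.67 and 11.2 with Pax5WT, 4.31 and 6.27 with K198Q and 8.73 and 8.02 with K198R. A second site over the start itself, 0.059 kb into the gene, was in both Pax5WT and both K198R lists and in neither K198Q list, at 5.11-fold to 8.69-fold enrichment. The difference in enrichment between forms was not tested.

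Itga6 passed the test in none of the comparisons, with or without the block. In sorted cells it was between 942 and 1542 normalized counts, the lowest and the highest both in Sirt7-/- pre-B cells. Among Pax5-/- libraries it was between 1098 and 1411. Cultured bone marrow cells had 2296 and 1760 with EV when wild-type and 2074 and 1589 with EV when Sirt7-/-, then 1602 and 887 with Pax5WT and 1469 and 1163 with K198R. Replicate 1 was the higher in all 4 groups, and both K198R libraries lay below both EV libraries (adjusted p = 0.448).

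The Itga6 record of GENCODE begins 41.3 kb before the RefSeq start. Peaks in more than 1 list lay near each of these starts, and peaks 13.7, 39.9, 68.6 and 97.9 kb after the GENCODE start were in 1 list each. The site at chr2:71744692-71745182 was in 4 lists (Pax5WT replicate 2, K198Q replicate 1 and both K198R lists), at 12.8, 4.40, 12.8 and 6.61-fold enrichment. It lay 0.645 kb before the GENCODE start, within the noncoding gene Gm13647, and 41.9 kb before the RefSeq start. A second site 0.361 kb after the RefSeq start was also in 4 lists, at 4.51-fold to 6.44-fold enrichment.

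Itgb1, the β1 chain shared by the α4 and α6 integrins, fell by almost a factor of 2 from pro-B to pre-B cells. Levels of Itgb1 in wild-type mice were 3671 and 4063 normalized counts in pro-B and 1950 and 2409 in pre-B cells, and in Sirt7-/- mice 4251 and 4617 in pro-B and 2005 and 2340 in pre-B cells. Each pre-B library lay below each pro-B library. The fall was 1.78-fold in wild-type (log2 -0.83, SE 0.14, adjusted p = 0.00364) and 2.04-fold in Sirt7-/- mice (log2 -1.03, SE 0.14, adjusted p = 0.00221).

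Itgb1 was the steadiest of the 8 in Pax5-/- cells, between 5449 and 5968 normalized counts in the 8 libraries. Its log2 differences from EV were at most 0.026, and their 95% limits lay between -0.19 and 0.22. Itgb1 was not steady in the cultured bone marrow cells. It was at 4618 and 4758 in wild-type cells with EV, 5361 and 4978 in Sirt7-/- cells with EV, 6056 and 6028 with Pax5WT and 7835 and 6795 with K198R. The 4 groups did not overlap and stood in that order from low to high. K198R was 1.41-fold above EV (log2 0.50, SE 0.10, adjusted p = 0.0333), a call lost when any 1 of the 4 libraries was left out (adjusted p between 0.0933 and 0.179) or when genes with low values were kept (adjusted p = 0.0534). The 10 stromal markers tested were higher with K198R than with EV in 10 of 10 (0 called, median log2 0.64) and with Pax5WT than with EV in 10 of 10 (0 called, median 0.86), and their part in the Itgb1 and Cd44 values was not tested. Peaks at the Itgb1 start were called with K198R alone, in both replicates at 5.61-fold and 3.37-fold enrichment, the weaker one above only 2.39% of its list.

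Cd44 rose from pro-B to pre-B cells. Wild-type Cd44 libraries had 4739 and 4148 normalized counts in pro-B and 8174 and 6794 in pre-B cells, and in Sirt7-/- mice 4206 and 3590 in pro-B and 5694 and 5850 in pre-B cells. Each pre-B library lay above each pro-B library. The rise was 1.68-fold in wild-type (log2 0.75, SE 0.13, adjusted p = 0.00432) and 1.49-fold in Sirt7-/- mice (log2 0.57, SE 0.13, adjusted p = 0.0153). In Sirt7-/- mice the call was lost without pre-B replicate 1, pre-B replicate 2 or pro-B replicate 2 (adjusted p = 0.0566, 0.0536 and 0.0869). Sirt7-/- pre-B cells were 1.29-fold below wild-type pre-B cells (log2 -0.37, unadjusted p = 0.0262, adjusted p = 0.294 by limma).

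Among Pax5-/- cells Cd44 was lowest with Pax5WT. It was at 2757 and 1919 normalized counts with EV, 1166 and 824 with Pax5WT, 1906 and 1413 with K198Q and 2026 and 1407 with K198R. Replicate 2 was the lower in all 4 groups, and the Pax5WT libraries were the lowest of the 8. The log2 difference from EV was -1.23 with Pax5WT (SE 0.27, adjusted p = 0.0546, and 7.72e-05 with the block), -0.49 with K198Q (adjusted p = 0.838, and 0.0126 with the block) and -0.45 with K198R (adjusted p = 0.390, and 0.00365 with the block). With 1 library left out these values ran from -1.49 to -0.97, from -0.75 to -0.23 and from -0.71 to -0.18. Both mutants lay above Pax5WT, K198Q by a log2 difference of 0.74 (adjusted p = 1.0, and 0.0205 with the block) and K198R by 0.78 (adjusted p = 0.238, and 0.00129 with the block). K198R and K198Q differed by 0.041 (95% interval -0.58 to 0.66).

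Cultured bone marrow cells held Cd44 at 1698 and 2202 normalized counts in wild-type cells with EV, 1766 and 2172 in Sirt7-/- cells with EV, 2077 and 2438 with Pax5WT and 2659 and 3067 with K198R. Both K198R libraries were above the other 6 (against EV, log2 0.54, SE 0.17, adjusted p = 0.126, and 0.00668 with the block). The Cd44 site in 3 lists was in an intron (chr2:102867558-102868060, 33.7 kb after the start), at 8.75-fold enrichment in Pax5WT replicate 2 and 6.36-fold and 8.40-fold with K198R. Neither K198Q list had a peak over Cd44.

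**Figure D4:**
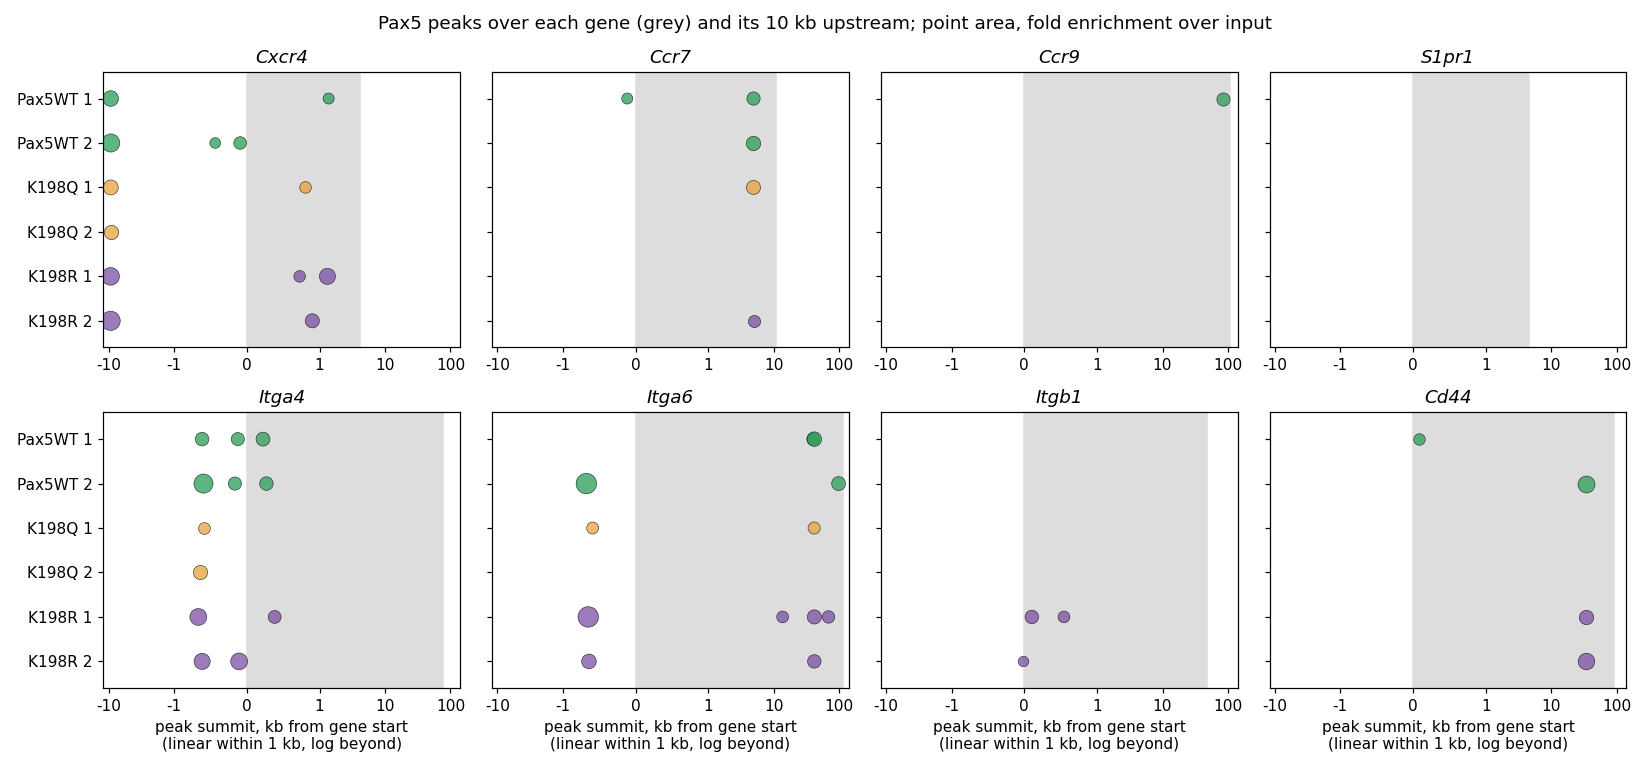
Pax5 peak summits over each receptor gene (grey) and its 10 kb upstream, in kb from the GENCODE gene start (linear within 1 kb, log beyond), for 3 Pax5 forms in 2 replicates each, with point area for fold enrichment over input. The upstream Cxcr4 and Itga4 sites appear in all 6 rows, S1pr1 is empty, and Itgb1 has points with K198R alone.

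The counts of other pathway genes called between the stages stand beside 40.2% of all genes in wild-type and 35.7% in Sirt7-/- mice. Of 15 other chemokine and lipid-guidance receptors, 6 rose and 5 fell from pro-B to pre-B cells in wild-type mice, with a median log2 change of -0.40. Gpr183, a receptor for oxysterols, rose from a mean of 62.1 to 574 normalized counts (log2 3.18) and S1pr3 from 50.4 to 415 (log2 3.04). Ccr10 fell from 160.5 to 6.51 (log2 -4.56) and the fractalkine receptor Cx3cr1 from 78.4 to 6.34 (log2 -3.56). In Sirt7-/- mice 6 rose and 4 fell, with a median of 0.38, Ccr6 among the risers (67.6 to 743).

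Of 14 other integrin genes tested, 6 rose and 4 fell in wild-type mice and as many in Sirt7-/- mice. Itgb3 rose from 745 to 5831 in the wild type (log2 2.97) and from 429 to 4454 in the knockout (log2 3.37). Itgb4, the chain that pairs with α6 in another laminin receptor, fell from 168 to 8.65 (log2 -4.28), and Itga5, the fibronectin receptor chain that pairs with β1, fell from 2952 to 520 (log2 -2.51). The 12 other adhesion molecules split into 6 that rose and 3 that fell in wild-type mice, and 5 and 3 in Sirt7-/- mice. Spn, which encodes the CD43 used to sort the stages and is therefore no finding, fell from 18210 to 5860 (log2 -1.64). Pecam1 rose from 6917 to 15228 (log2 1.13). Integrin activation and linkage to the cytoskeleton was covered by 12 genes, of which 3 rose and 3 fell in wild-type and 2 and 2 in Sirt7-/- cells, beside 40.2% and 35.7% of all genes called in either direction. In wild-type cells the adaptor Pxn fell from 9645 to 4407 (log2 -1.13) and Vcl from 1074 to 419 (log2 -1.39).

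Of 8 genes of the S1P pathway 4 rose and 0 fell in each genotype, beside 18.1% of all genes that rose in wild-type and 16.5% in Sirt7-/- mice. Klf2, a transcription factor that activates S1pr1, rose from 6155 to 35349 in wild-type cells (log2 2.52, SE 0.43, adjusted p = 0.00394). Spns2, an S1P exporter, rose from 596 to 3937 (log2 2.72, adjusted p = 0.000109), and Foxo1, which activates Klf2, rose from 15894 to 33772 (log2 1.09, adjusted p = 0.000229). Chemokine receptor signalling and its brakes had 18 genes, of which 9 rose and 1 fell with stage in wild-type mice and 9 and 0 in Sirt7-/- mice, beside the same shares. The risers named by size were Rgs16, Rgs2, Rgs10 and Rgs14, whose products shut off G proteins, and Rgs2 rose from 5392 to 22172 in wild-type cells (log2 2.04). The medians of these lists were 0.92 and 0.70 in wild-type cells, beside -0.035 over all genes.

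Markers of other cell types differed between the stages too. The summed level of 8 immature and mature B cell markers, led by Ighd, was between 23775 and 29961 in the 4 pro-B libraries and between 107668 and 233671 in the 4 pre-B libraries, and 8 of 8 rose in wild-type and 7 of 8 in Sirt7-/- cells. The sum of 10 myeloid markers was 85076 and 57340 in wild-type pro-B cells and 67361 and 15250 in Sirt7-/- pro-B cells, led by Ngp, against 12515 to 24652 in pre-B cells, led by Itgam. In wild-type cells 1 of these 10 genes rose and 2 fell, and none was at 0. Plasma cell markers, led by Jchain in pro-B cells, summed to between 25901 and 65234 there and between 8610 and 9795 in pre-B cells (1 rose and 2 fell of 5 in wild-type cells). T cell markers, led by Lck, summed to 6489 to 6971 in pro-B and 3120 to 4201 in pre-B cells (10 of 12 fell in wild-type and 5 of 12 in Sirt7-/- cells). Erythroid markers reached 53189 in Sirt7-/- pre-B replicate 2, against 3974 to 32539 in the other 7 libraries. The part of these markers in the receptor changes was not tested.

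In Pax5-/- cells other homing genes passed the test in the fit with no block, beside 9.92% of all genes called with K198R against EV and 3.25% with Pax5WT. Of 12 other chemokine and lipid-guidance receptors 1 rose and 6 fell with K198R against EV, with a median log2 change of -1.72, and 0 rose and 2 fell with Pax5WT. S1pr3 fell from 1123 to 254 normalized counts with K198R (log2 -2.15, adjusted p = 0.000359) and to 614 with Pax5WT (log2 -0.88, adjusted p = 0.0284). Of 14 other integrins 0 rose and 5 fell with K198R, with a median of -1.23. Itgb7, which pairs with α4 in the gut homing integrin, fell from 1028 to 159 with K198R (log2 -2.78, adjusted p = 0.00276) and to 230 with Pax5WT (log2 -2.17, adjusted p = 0.0172). Itga5 rose from 852 to 1649 with Pax5WT (log2 0.95, adjusted p = 0.0356). Of 12 integrin activation and linkage genes Ptk2 rose (log2 0.70) and Pxn (log2 -0.46) and Fyb (log2 -4.21) fell with K198R, and of 17 genes of chemokine receptor signalling the receptor kinases Grk5 (log2 1.54) and Grk2 (log2 0.64) rose and Dock8 (log2 -0.49) fell. K198Q against EV moved none of the genes of the 6 pathway lists past the test.

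Pecam1 fell with K198R in Pax5-/- cells (log2 -0.44). Foxo1 rose there from 2068 to 4908 (log2 1.25, adjusted p = 0.00024), while Klf2 fell from 355 to 72.9 (log2 -2.26, adjusted p = 0.00309) and Spns2 from 693 to 202 (log2 -1.86, adjusted p = 0.00721). Of 8 genes of the S1P pathway 1 rose and 3 fell there, and S1pr1 itself stayed between 88.8 and 159 in all 8 libraries.

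Calls among other homing genes in cultured Sirt7-/- cells with K198R against EV stand beside 4.83% of all genes. Of 9 other chemokine and lipid-guidance receptors 0 passed, of 12 other integrins Itgb4 rose (27.0 to 198.3, log2 2.83, adjusted p = 0.0117), and of 11 genes that link integrins to the cytoskeleton the kinase Ptk2 rose (491 to 1682, log2 1.83, adjusted p = 0.0295) and Rassf5, which carries Rap1 signals to integrins, fell (3600 to 2459, log2 -0.55, adjusted p = 0.0195). Dock8, a Rac and Cdc42 activator of migrating lymphocytes, fell from 2057 to 390 (log2 -2.40, adjusted p = 0.000263) and Rgs2 from 1057 to 328 (log2 -1.68, adjusted p = 0.00211), 2 of 16 genes of chemokine receptor signalling. The S1P lyase Sgpl1 rose (log2 0.55, adjusted p = 0.0333), 1 of 8 genes of the S1P pathway. Pax5WT against EV and Sirt7-/- EV against wild-type EV moved none of the genes of the 6 lists past limma's test.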

How the data were processed

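RNA-seq of 24 libraries and Pax5 ChIP–seq of 6 immunoprecipitated samples were used, of 36 samples in the series; the 6 ChIP input libraries were not used here. The members and all gene lists were chosen with earlier results of these data known. The authors quantified transcripts with Salmon (mm10, with GC-bias correction), imported them with Tximeta and deposited 3 tables of counts normalized by DESeq2 (median of ratios), treated here as a signal, and each table was normalized on its own. Libraries summed to between 50603577 and 54896194 normalized counts in the sorted table (50004827 to 55536608 whole reads recovered, with 100% of values whole multiples), 28865461 to 30520853 in the Pax5-/- table and 27814214 to 30160880 in the cultured Sirt7-/- table. In the last 2 tables the reads could not be recovered.

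The deposited peak lists were called by the authors with MACS2 for each replicate over its own input (q under 0.05) after Bowtie2 alignment to mm10 and removal of duplicates with Sambamba. They give fold enrichment and −log10 q as deposited. For each form, peaks of 1 replicate were kept when they overlapped a peak of the other replicate by at least 1 base. A gene was counted when a kept peak touched the gene (GENCODE M21) or its 10 kb upstream. The 18015 genes examined were tested genes of any type with 1 GENCODE record outside the mitochondrial genome.

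Log2(value + 1) was fitted with limma 3.58.1 (R 4.3.3, trended variance) over all 8 libraries of a table, for genes that reached 10 normalized counts in 2 or more libraries (17649, 13345 and 13651 genes), with Benjamini-Hochberg adjustment over all genes tested and a threshold of 0.05. edgeR 4.0.16 and DESeq2 1.42.0 on the recovered reads were alternatives for the sorted table. On simulated data the fit recovered 97% of genes changed by a log2 value of 1 between the stages in wild-type cells. It recovered 100% of those changed by 2, and 11 unchanged genes were also called. The simulation gave all genes the same dispersion, changed no gene of low mean and added no replicate effect. Its shares therefore do not give the power for the receptors here. The 8 receptors were named in every comparison, and of each other list up to 4 genes, those with the largest absolute change among those past the threshold with no overlap between groups; a second rule added an absolute log2 fold change of 1.5. Tables and figures were made with Python 3.11.15, pandas 2.3.3, numpy 2.4.6 and matplotlib 3.10.9.

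The methods call each replicate a mouse for experiments involving mice, and say that RNA-seq and ChIP–seq replicates were made on different days. They do not say whether replicates of the cultured cells came from different mice. No label ties a replicate number to a shared day across groups. Libraries of the same replicate number deviated together over genes in the Pax5-/- table (correlations of 0.26 to 0.38 over 6 pairs of groups) and the cultured Sirt7-/- table (0.16 to 0.43), and the fit with a replicate block is given where it changes a call. In the sorted table the 2 stages of a number correlated by 0.16 in Sirt7-/- and 0.080 in wild-type mice, and a block by mouse changed no call of a receptor. RNA libraries were oligo-dT primed and strand-marked.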

Additional observations from a re-analysis of the deposited data

Results flagged for a closer look

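Ccr7 with a form of Pax5 differed from EV in opposite directions in the 2 cultured tables. Pax5WT against EV gave a log2 difference of -0.46 in Pax5-/- cells and 1.73 in Sirt7-/- cells, and each library with Pax5WT lay below both EV libraries in the first and above both in the second. K198R against EV gave -0.52 in Pax5-/- cells and 2.91 in Sirt7-/- cells, again with no overlap in either. Of these, K198R in Sirt7-/- cells alone passed limma's test with no replicate block (adjusted p = 0.0262), and the other adjusted p-values were 0.554, 0.336 and 0.318. With the block, Pax5WT against EV in Sirt7-/- cells passed as well, and neither comparison in Pax5-/- cells did. Cxcr4 also differed in sign between the tables for K198R against Pax5WT, at 0.21 in Pax5-/- cells and -0.23 in Sirt7-/- cells, and neither passed (adjusted p = 0.664 and 0.698). The difference between the tables was not tested, since they were normalized separately. No group had enough libraries for a test of outlying samples.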

How the results depend on the processing

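For 37 differences of single receptors (past the test, with or without the block, or at an unadjusted p under 0.05) 322 alternatives were run, of which 283 kept direction and side of the threshold, 18 lost the call, 21 gained it and 0 turned the direction. Counting receptors past the test, the replicate block gave 3 for Pax5WT with EV, 1 for K198Q with EV, 4 for K198R with EV, 1 for K198Q with Pax5WT, 1 for K198R with Pax5WT and 3 for K198R with K198Q in Pax5-/- cells, each against 0 without it. In cultured bone marrow cells the block gave 2 for Sirt7-/- EV with wild-type EV, 1 for Pax5WT with EV and 2 for K198R with Pax5WT, against 0. It changed no other count beyond 1.5 times. Leaving out 1 library gave 0 to 2 for K198R with EV and 0 to 1 for K198R with K198Q in Pax5-/- cells, and 0 to 1 for K198R with EV in Sirt7-/- cells, where keeping low genes gave 1. For Pax5WT peaks, either replicate in place of both gave 6 genes (50.3% of all genes) and a single replicate 5 to 6 (44.7% and 40.4%). For K198Q they gave 4 (24.5%) and 2 to 4 (19.1% and 18.5%), while a −log10 q of at least 5 gave 1 (10.0%) and a 5 kb window 1 (11.5%). With 2 libraries a group, differences within the intervals given were not detectable here, and the depth behind the 2 cultured tables is unknown. The cause of these changes was not tested.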

Other observations

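Over all 24 libraries, with log2 values centred within each table, the genes whose pattern was most like that of each receptor were ranked by Pearson's r among 10505 genes present in all tables, as a description that shares libraries and their scaling. For Cxcr4 they were Eps15 (0.946), Vps13b (0.941) and Filip1l (0.939), and for S1pr1 Ctsz (0.949), Btg2 (0.926) and Heatr6 (0.923). Ccr7 was most like Arhgef11 (0.940), Cd74 (0.934), the invariant chain of MHC class II, and Shank1 (0.928). Itga4 was most like Acot11 (0.893), Mzb1 (0.846) and Antxr2 (0.844), and Itgb1 most like Emb (0.951), Gphn (0.946) and Spred2 (0.937). For Itga6 they were Cux1 (0.810), Hmgcll1 (0.791) and Gpbp1 (0.789), and for Cd44 Dhrs11 (0.866), Slc38a7 (0.842) and Mapkapk3 (0.813).

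Most of these likenesses were set by 1 table. The sorted cells held 81.64% of the spread of Cxcr4, 78.96% of that of S1pr1 and 78.55% of that of Itgb1, while the cultured bone marrow cells held 75.21% for Ccr7, 83.86% for Itga4 and 71.56% for Itga6, and the Pax5-/- cells 54.75% for Cd44. Among the receptors themselves, Cxcr4 and S1pr1 were alike (r = 0.777), as were Ccr7 and S1pr1 (r = 0.699), and Cxcr4 ran opposite to Itgb1 (r = -0.788) and Ccr7 opposite to Itga4 (r = -0.747).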
